A study of Mus musculus with 6 samples.

Results

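Intergenic regions of open chromatin that lay close to an open promoter were followed in mouse nephron progenitor cells between the embryonic kidney and the newborn kidney. A region was taken when the deposited annotation gave it no promoter, no gene and no exon, when it lay on an autosome, and when its midpoint was at most 100 kb from the midpoint of the nearest region annotated as a promoter on the same chromosome. This held for 7293 of the 43523 distinct regions. The choice used position and annotation only, and no counts. The median distance to the open promoter was 41.1 kb, with quartiles of 21.0 and 66.0 kb, and the median width was 1451 bp. Together these regions covered 11.3 Mb. CD1 mice were the source, as embryos (stage E14.5) or as newborns (P0). Each stage had 3 libraries, and the labels give no treatment or genetic change for either. Each library was made from 50000 cells pooled from the kidneys of 1 litter and selected on magnetic beads with antibodies against Itga8, an integrin of the progenitors, so that a value is an average over animals and over all cells the beads retained.

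ATAC-seq measures open chromatin through the transposase Tn5, which inserts sequencing adapters where DNA is not packed away. Promoters sit at gene starts, whereas enhancers, the switches that raise transcription of a gene in particular cells and at particular times, often lie in the intergenic DNA around it and contact the promoter through a loop. Nephron progenitors, which express Six2, either renew themselves or form the epithelium of the nephron in response to Wnt signals, and they are used up soon after birth. Naming a region by its nearest open promoter describes position, and the gene that a region acts on was not measured.

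Counts in regions totalled 6492996 to 12292629 per library, and the median intergenic region near an open promoter held 83 to 140 counts in a library. Promoters were listed for 10 of 20 nephron progenitor genes, with summed CPM (counts scaled to library size) of 317 to 330 at E14.5 and 305 to 396 at P0. They were listed for 6 of 12 stromal genes, 4 of 10 endothelial genes, 5 of 10 ureteric genes and 0 of 10 immune genes. Of the defining progenitor genes, Itga8, Cited1 and Pax2 had no region listed as a promoter, while Six2, Eya1 and Wt1 had one. All of these counts use the first row kept for each region. Whether the dropped repeat rows list promoters of further genes was not examined. Since progenitor, stromal and ureteric genes had a listed promoter in like shares, these promoters do not tell the labelled cell type from its neighbours. Summed promoter CPM were 125 to 163 at E14.5 and 138 to 188 at P0 for stroma, 96.2 to 103 and 85.7 to 95.04 for endothelium, and 109 to 119 and 92.5 to 99.1 for ureteric epithelium. In these bulk libraries a change in the number of cells of a type and a change in accessibility per cell cannot be told apart, and the part of other cells in the results below was not tested.

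Sequence is shown for 5 changed regions that contain the annotated start of a RefSeq gene, because they lie outside the authors' promoter class and yet span a gene start, and for the start of Cdh6, the nearest gene with an open promoter to a region that rose at P0. Each run gives the 250 bases before the start, 5′ to 3′ on the gene's strand, in RefSeq's GRCm38.p6 build. Capitals mark matches on either strand to 4 motifs. The letters searched were TATAAA for the TATA box, CCAAT for the box of that name, GGGCGG for the GC box, and TGANTCA for the AP-1 site. The pair of GC boxes in Cdh6 overlap each other. The windows lay at chr10:44427989-44428238 (minus strand) for Gm35028, chr10:82127763-82128012 (plus) for AU041133, chr16:44615979-44616228 (plus) for Gm30252, chr5:104571422-104571671 (plus) for Zfp33b, chr6:42509380-42509629 (plus) for Gm34752 and chr15:13173676-13173925 (minus) for Cdh6.
Gm35028: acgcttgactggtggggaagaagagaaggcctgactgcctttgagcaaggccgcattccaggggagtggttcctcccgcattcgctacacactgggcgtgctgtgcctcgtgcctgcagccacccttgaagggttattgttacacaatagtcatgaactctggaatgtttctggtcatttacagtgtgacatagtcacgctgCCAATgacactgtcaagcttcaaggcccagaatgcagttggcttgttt
AU041133: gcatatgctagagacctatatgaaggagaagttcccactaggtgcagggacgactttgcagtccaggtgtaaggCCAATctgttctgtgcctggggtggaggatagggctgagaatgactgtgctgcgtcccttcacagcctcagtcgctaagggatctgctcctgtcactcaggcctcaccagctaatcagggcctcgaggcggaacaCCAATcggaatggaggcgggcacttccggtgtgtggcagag
Gm30252: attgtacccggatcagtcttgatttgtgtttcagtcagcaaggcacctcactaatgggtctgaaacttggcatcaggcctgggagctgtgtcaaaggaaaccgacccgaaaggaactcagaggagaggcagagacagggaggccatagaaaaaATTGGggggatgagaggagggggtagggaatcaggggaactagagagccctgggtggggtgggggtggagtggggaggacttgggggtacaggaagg
Zfp33b: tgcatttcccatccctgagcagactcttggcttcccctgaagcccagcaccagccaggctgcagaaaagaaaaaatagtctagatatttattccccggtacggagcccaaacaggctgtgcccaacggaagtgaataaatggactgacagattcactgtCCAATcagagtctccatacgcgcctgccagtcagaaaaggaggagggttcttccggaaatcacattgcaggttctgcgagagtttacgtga
Gm34752: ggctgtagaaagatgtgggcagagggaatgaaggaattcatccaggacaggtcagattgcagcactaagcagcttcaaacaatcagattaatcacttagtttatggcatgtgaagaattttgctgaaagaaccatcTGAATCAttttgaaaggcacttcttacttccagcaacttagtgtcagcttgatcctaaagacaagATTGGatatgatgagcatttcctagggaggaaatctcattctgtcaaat
Cdh6: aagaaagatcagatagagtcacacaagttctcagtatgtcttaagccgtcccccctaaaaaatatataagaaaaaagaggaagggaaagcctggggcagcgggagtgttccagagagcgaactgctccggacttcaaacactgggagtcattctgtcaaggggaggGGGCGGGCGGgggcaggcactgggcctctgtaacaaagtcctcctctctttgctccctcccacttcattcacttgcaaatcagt
CCAAT occurred in the windows of all 5 changed regions, with 2 matches in AU041133, and Gm34752 also held an AP-1 match. Cdh6 held 2 GC boxes and no CCAAT. Among all 32851 RefSeq start windows of this length, 33.8% held CCAAT, 32.7% a GC box, 12.4% a TATA box and 6.75% an AP-1 match. Among the 281 windows that lay inside intergenic regions near an open promoter, these shares were 37.4%, 33.5%, 9.25% and 5.69%. A match is a description of the letters and not a bound site.

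At P0, 155 of the 7293 regions were more accessible and 190 were less accessible than at E14.5 (edgeR quasi-likelihood F test, Benjamini-Hochberg adjusted p under 0.05 over all regions). These 345 regions make up 4.73%, and the share over all 43523 regions was also 4.73 percent, of which 1.79 percent were higher and 2.94 percent lower. The share of changed regions is thus that of the whole table. The regions that rose had a median log2 fold change (P0 over E14.5) of 1.06, with a range of 0.70 to 4.64, and 92 of them at least doubled. Those that fell had a median of -1.25 and reached -2.47, and 158 of them at least halved. The median over all of these intergenic regions was 0.06, beside 0.01 over the whole table. In 344 of the 345 changed regions all P0 libraries lay on the same side of all E14.5 libraries. Such separation, without regard to the test, occurred in 1815 of the 7293 regions (24.9%), beside 24.2 percent of all regions.

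The counts of changed regions rested on particular libraries. Without E14.5 replicate 3, 50 regions passed (9 higher and 41 lower), and all 50 were among the 345. Without P0 replicate 1, 72 passed (12 and 60), all again among the 345. Without E14.5 replicate 1, 188 passed (42 and 146), of which 185 were shared. Leaving out E14.5 replicate 2 gave 521 (309 and 212), of which 305 were shared, so that higher regions then outnumbered lower ones. The order of the directions also turned with total-count scaling, which gave 182 higher and 170 lower.

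**Figure D1:**
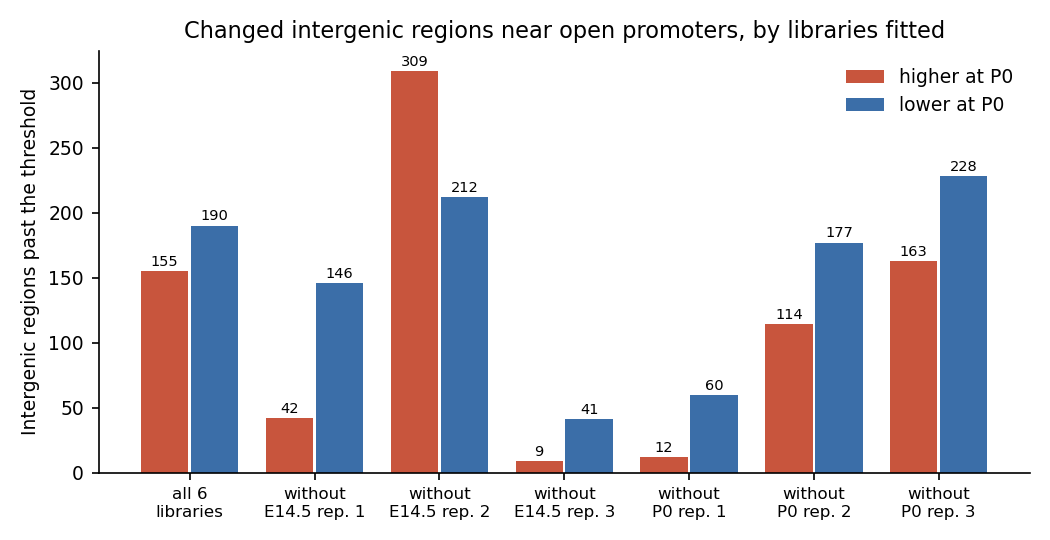
Number of intergenic regions near an open promoter that passed an adjusted p of 0.05 in edgeR, higher (red) or lower (blue) at P0, with all 6 libraries and with each library left out in turn; the number stands above each bar. Both counts were smallest without E14.5 replicate 3 (9 and 41). The higher count was largest without E14.5 replicate 2 (309), and the lower count without P0 replicate 3 (228).

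The share of all counts that fell in these regions was 10.1%, 11.1% and 10.7% in E14.5 replicates 1 to 3 and 11.4%, 11.9% and 10.8% in P0 replicates 1 to 3. The 95% Wilson intervals reached at most 0.0249 percentage points to either side and cover counting error only. The stages overlapped, since E14.5 replicate 2 lay above P0 replicate 3. The means were 10.6% ± 0.501 and 11.4% ± 0.576 (SD, n = 3 each), and the stages were not separated: the difference was 0.718 points (exact two-sided permutation test, p = 0.2, where 0.1 is the smallest p this design allows). Relative to intergenic regions more than 100 kb from an open promoter, the log2 ratio of counts was -0.26, -0.39 and -0.23 at E14.5 and -0.29, -0.35 and -0.23 at P0. These ratios overlapped, with means of -0.29 ± 0.08 and -0.29 ± 0.06 (SD, n = 3 each; exact permutation test, p = 0.9).

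Among the 9021 intergenic regions beyond 100 kb, 9.06% changed, 221 upward and 596 downward. Intronic regions stood at 6.28% (267 and 344 of 9732), exonic regions outside promoters at 5.07%, and promoter regions at 0.87% (53 and 65 of 13555). The share of changed regions near an open promoter was below that of the distant intergenic and the intronic regions, and above that of promoters, in each of the 14 other fits tried, which include every fit with a library left out. The fit with no filter is among the 14 and repeats the main fit, because the filter for low counts removed 0 regions. The shares themselves moved widely. Without E14.5 replicate 3 they were 0.686% near an open promoter, 1.78% in distant intergenic regions (12 higher and 149 lower), 0.904% in introns and 0.0885% in promoters. Without P0 replicate 1 they were 0.987%, 2.48%, 1.26% and 0.118% in that order, and without E14.5 replicate 1 they were 2.58%, 5.24%, 3.15% and 0.325%. With E14.5 replicate 2 left out they were 7.14%, 12.4% (551 and 566), 9.33% and 1.41%, and leaving out P0 replicate 3 gave 1.42% in promoters. Regions are not independent replicates, and no test between classes was made. The median level per length was 8.17 CPM per kb near an open promoter, 7.98 in distant intergenic regions and 12.8 in promoters.

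Within 100 kb, the share that changed was 2.69% of the 744 regions at 0 to 10 kb, 3.63% of 1489 at 10 to 25 kb, 4.72% of 2098 at 25 to 50 kb, 6.66% of 1651 at 50 to 75 kb and 4.73% of 1311 at 75 to 100 kb. The regions within 25 kb held more gains than losses, with 11 higher and 9 lower in the nearest class and 32 and 22 in the next. At 25 to 50 kb there were 49 higher and 50 lower. Beyond 50 kb losses outnumbered gains, at 37 higher and 73 lower and then 26 and 36. These orders depended on the fit. Within 10 kb, limma-voom gave 7 higher and 10 lower, the replicate block 6 and 9, and leaving out E14.5 replicate 1, P0 replicate 1 or P0 replicate 2 gave 2 and 6, 1 and 3, or 6 and 9. At 10 to 25 kb leaving out E14.5 replicate 1, E14.5 replicate 3 or P0 replicate 1 gave 8 and 18, 3 and 4, or 1 and 7. At 25 to 50 kb leaving out E14.5 replicate 1, 2 or 3 gave 16 and 36, 88 and 56, or 1 and 11, and leaving out P0 replicate 1 gave 3 and 15. At 75 to 100 kb total-count scaling gave 32 and 30, and leaving out E14.5 replicate 2 gave 65 and 38. At 50 to 75 kb lower regions were the more numerous in all 14 other fits. The regions that rose lay at a median of 41.0 kb and those that fell at 54.8 kb, beside 40.5 kb for the regions that did not pass. Past the 100 kb limit the share went on to 7.33%, 9.44% and 11.2% at 100 to 200 kb, 200 to 500 kb and over 500 kb. The share at 0 to 10 kb was below that at 50 to 75 kb in all 14 other fits.

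**Figure D2:**
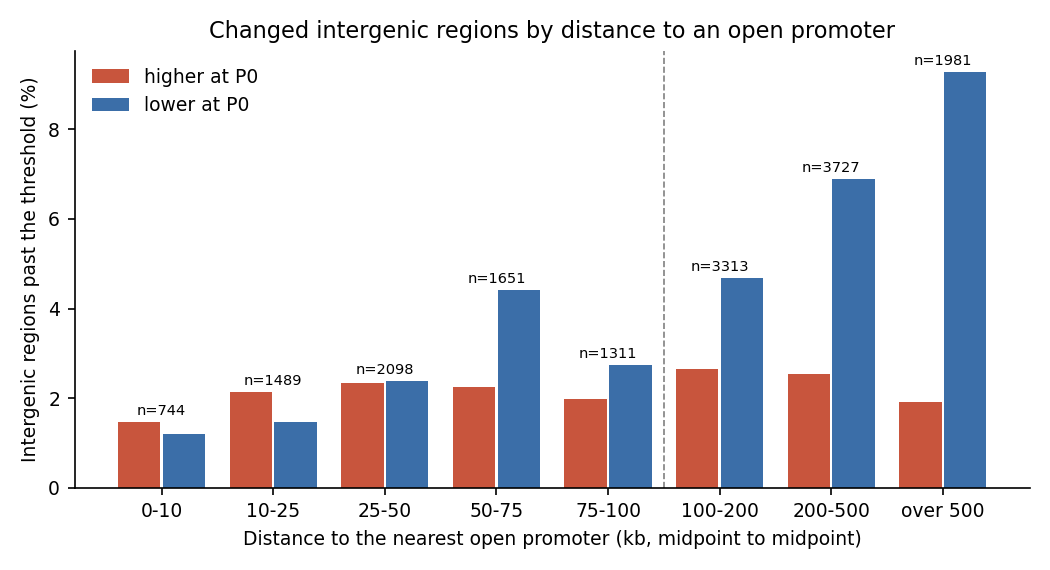
Percentage of intergenic regions higher (red) or lower (blue) at P0, by distance in kb between the midpoints of the region and the nearest open promoter; n is the number of regions in each class and the dashed line marks 100 kb. The lower share is 1.21% at 0 to 10 kb, 4.42% at 50 to 75 kb and 9.29% beyond 500 kb, while the higher share stays between 1.48% and 2.66%.

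Just inside the limit were a region 99.99 kb from the promoter of Nab1, with a log2 fold change of -0.20, and one 99.9 kb from the promoter of Kit, with 0.27. Just outside were regions on chromosomes 10 and 3, with values of 0.62 and 0.70. None of the 4 passed the test after adjustment.

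The largest gain lay at chr3:35680482-35680979, between Sox2 and Atp11b and 73.5 kb from the promoter of Atp11b, a phospholipid flippase. Its CPM were 1.66, 0.963 and 1.17 at E14.5 and 43.4, 46.2 and 5.60 at P0. P0 replicate 3 was far below the other P0 libraries. The log2 fold change was 4.64 ± 0.64 (SE) with an adjusted p of 0.00185 in edgeR, and limma-voom gave an adjusted p of 0.0717. The Atp11b promoter itself stood at 50.2 ± 1.08 CPM (SD, n = 3) at E14.5 and 48.8 ± 14.1 CPM at P0.

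A region at chr15:13189668-13190607, 16.6 kb from the promoter of Cdh6, rose from 4.15, 3.24 and 4.20 CPM at E14.5 to 12.1, 10.3 and 10.9 at P0. Cdh6 encodes a cadherin of the early nephron epithelium. The libraries of each stage were close together, and the log2 fold change was 1.53 ± 0.28 (SE; edgeR adjusted p = 0.00653; 0.0543 without P0 replicate 1). The Cdh6 promoter was level between the stages in its means, at 54.7 ± 4.56 and 55.4 ± 11.5 CPM (SD, n = 3 each). The other 3 intergenic regions nearest to Cdh6 did not pass, with log2 fold changes of 0.45, -0.10 and -0.22.

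The remaining 8 of the 10 largest gains had log2 fold changes of 1.48 to 1.82. The region 16.6 kb from the promoter of Cxadr held 2.49, 4.20 and 1.87 CPM at E14.5 and 11.6, 11.3 and 8.13 at P0. Cxadr encodes an adhesion protein of epithelial junctions. The region between Rspo3, a Wnt-enhancing ligand, and Cenpw, a kinetochore component whose promoter was nearest, held 4.27, 5.52 and 2.34 CPM and then 14.4, 13.5 and 8.60. The region 18.8 kb from Zfp703, a transcriptional repressor, held 4.63, 5.69 and 4.79 CPM and then 16.8, 12.0 and 13.9. Among the regions at Cxadr, Cenpw and Zfp703, the P0 libraries were most spread at Cenpw. The region 78.6 kb from Fbxo8, an F-box gene, held 4.98, 7.36 and 5.96 CPM and then 16.6, 18.5 and 16.5, with a log2 fold change of 1.48 ± 0.24 (SE; edgeR adjusted p = 0.00359), and it passed in all 14 other fits. Further gains lay nearest to Gcap14 (1.60), Nrsn1 (1.55), Snx2 (1.51) and the small nucleolar RNA gene SNORA17 between Tbx18 and Nt5e (1.48). Without E14.5 replicate 3, the edgeR adjusted p was 0.0655 at Cxadr, 0.0536 at Gcap14, 0.0977 at Cenpw, 0.0685 at Nrsn1, 0.0541 at Snx2 and 0.0609 at SNORA17. Without P0 replicate 1 it was 0.0564 at Cxadr, 0.0619 at Gcap14, 0.109 at Cenpw, 0.0545 at Snx2 and 0.0506 at Zfp703.

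The 10 largest losses, chosen like the gains among changed regions whose stages did not overlap, had log2 fold changes of -1.94 to -2.47. The largest lay at chr13:118418220-118418654, between Mrps30 and Fgf10, which encodes a growth factor, and nearest to the promoter of ENSMUSG00000097411. Its CPM were 4.86, 4.29 and 6.89 at E14.5 and 0.729, 1.36 and 0.868 at P0, and without E14.5 replicate 3 its adjusted p in edgeR was 0.0609. The region at chr10:9953552-9954595, 52.8 kb from the promoter of Stxbp5, a syntaxin-binding protein of vesicle release, fell from 11.3, 12.0 and 14.25 CPM to 2.60, 2.57 and 2.13. Its log2 fold change was -2.36 ± 0.29 (SE; edgeR adjusted p = 0.00115). The region at chr13:117088481-117089354, 63.5 kb from Parp8, a member of the ADP-ribosyltransferase family, fell from 17.0, 15.8 and 25.7 CPM to 4.37, 4.39 and 3.63, a log2 fold change of -2.24 ± 0.27 (SE; edgeR adjusted p = 0.00109). The P0 libraries at Stxbp5 and Parp8 were close to each other.

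The region 35.0 kb from the promoter of Gatm held 8.54, 6.74 and 6.54 CPM at E14.5 and 2.19, 1.36 and 0.868 at P0. Its log2 fold change was -2.31, and Gatm is the enzyme that makes the creatine precursor in kidney. The region between Igf1, an insulin-like growth factor, and Pmch, nearest to the promoter of the nuclear pore gene Nup37, held 10.7, 14.4 and 19.6 CPM and then 3.44, 5.75 and 2.45 (log2 fold change -1.98). The region between Npepl1 and Gnas, nearest to the promoter of Gm10714, held 13.4, 20.9 and 30.5 CPM and then 3.75, 6.36 and 6.63 (log2 fold change -1.95). The E14.5 libraries were widely spread at Gm10714. The other 4 losses lay between Dpp10 and Actr3 (-2.21), between Tom1l1 and Kif2b (-2.07), nearest to Bet1 (-2.06), and between Trhde and Tph2 (-1.94). Bet1 encodes a protein of vesicle transport. The regions at ENSMUSG00000097411 and Gatm did not enter the fit with a mean count of at least 50. In the fits that were run, the losses at ENSMUSG00000097411 and Nup37 lost their call, Nup37 without E14.5 replicate 3 (edgeR adjusted p = 0.053).

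**Figure D3:**
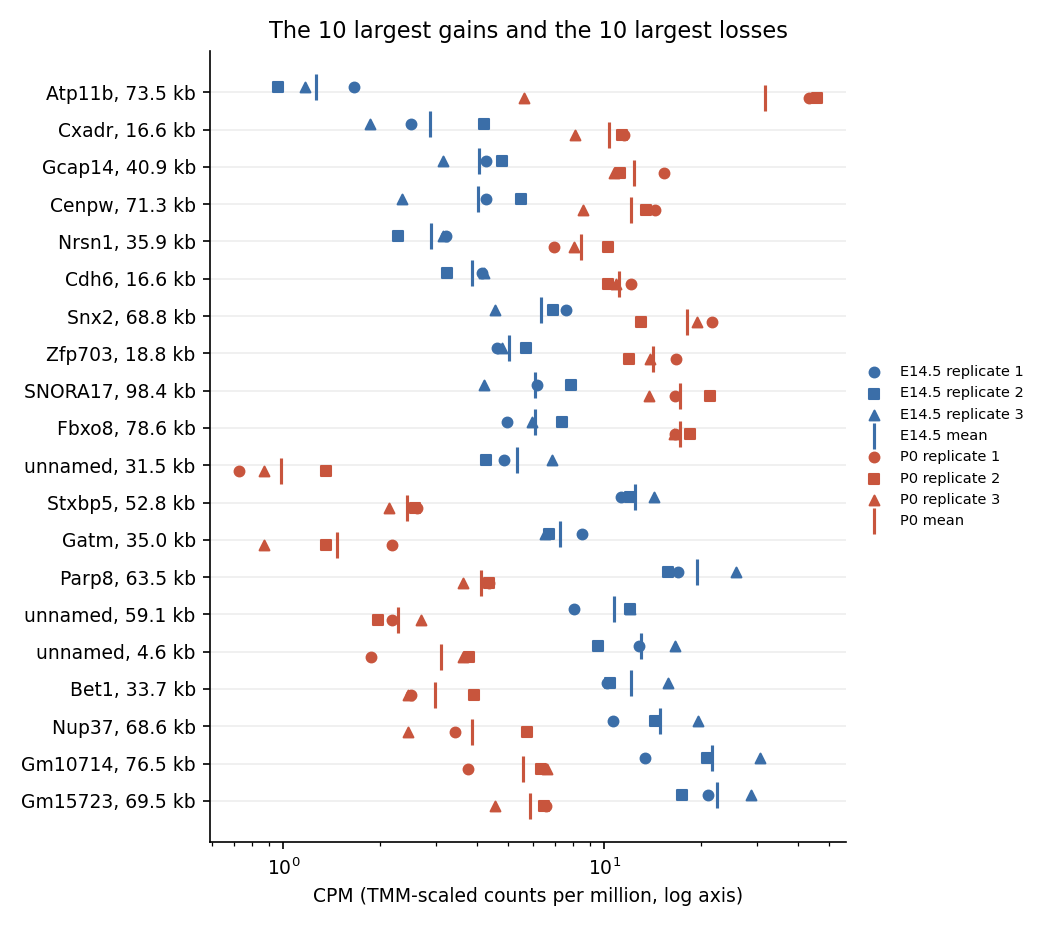
CPM on a log axis in every library for the 10 largest gains (upper rows) and the 10 largest losses (lower rows), labelled by the gene of the nearest open promoter and the distance to it; E14.5 is blue, P0 is red, symbols mark replicates and vertical bars the mean of 3 libraries. The regions were chosen among those whose stages do not overlap; P0 replicate 3 at Atp11b (5.60) lies far below the other P0 libraries (43.4 and 46.2).

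Regions nearest to genes of kidney development and of neighbouring cell types were counted from 8 lists with 116 genes in all. Of the 102 regions nearest to 41 of these genes, 7 changed (6.86%), 4 upward and 3 downward, beside 4.73 percent of all regions. Their median log2 fold change was 0.15. Of the regions near Mycn, 3 overlap each other and count separately here.

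Among nephron progenitor genes, 1 of 17 regions passed, and the median was 0.15. It lay 47.0 kb from the promoter of Eya1, a transcription co-factor of progenitors, at chr1:14356027-14358133. It fell from 20.3, 23.5 and 30.6 CPM at E14.5 to 11.7, 14.7 and 14.1 at P0 (log2 fold change -0.88 ± 0.21, SE; edgeR adjusted p = 0.0287), and gave an adjusted p of 0.2 without E14.5 replicate 3 or 0.171 without P0 replicate 1. Six2, the transcription factor that keeps progenitors undifferentiated, was nearest to 5 regions, with log2 fold changes of -0.16, 0.10, 0.38, -0.09 and 0.46, and none passed. The regions nearest to Osr1, Wt1, Gdnf, Fgf20 and Meox2 did not pass either.

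Of 26 regions near genes of nephron differentiation, 2 rose and none fell, and the median was 0.29. Beside the region at Cdh6, a region at chr2:24416364-24418243, 7.99 kb from the promoter of Pax8, a transcription factor of the forming nephron, rose from 13.0, 11.6 and 13.0 CPM to 22.9, 22.2 and 28.7. Its log2 fold change was 0.98 ± 0.20 (SE; edgeR adjusted p = 0.0126, and 0.0738 without E14.5 replicate 3 or 0.0609 without P0 replicate 1). The other 3 regions nearest to Pax8 had log2 fold changes of -0.25, 0.91 and 0.03. None of the 7 regions nearest to Hey1, a target of Notch signalling, passed, with log2 fold changes from -0.13 to 0.80. Nor did any of the 4 nearest to the Notch ligand Jag1, from -0.11 to 0.66.

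Of 10 regions near genes of developmental timing and growth, 1 rose, with a median of 0.31. It lay at chr12:12914997-12917982, 25.4 kb from the promoter of Mycn, a transcription factor of proliferating progenitors. Its CPM were 13.4, 16.6 and 13.1 at E14.5 and 24.7, 27.1 and 22.5 at P0, a log2 fold change of 0.78 ± 0.20 (SE; edgeR adjusted p = 0.0354). Leaving out E14.5 replicate 1 or 3, or P0 replicate 1 or 2, gave an adjusted p of 0.127, 0.188, 0.165 or 0.0892. The region 3.24 kb from Igf2bp3, an RNA-binding protein of fetal tissues, stood at -0.70 with an adjusted p of 0.0962 in edgeR.

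Of 34 regions near genes of Wnt, BMP, FGF and Notch signalling, 1 fell, and the median was 0.03. It lay at chr11:108876803-108877277, 44.2 kb from the promoter of Axin2, a feedback inhibitor and common readout of Wnt signalling. Its CPM fell from 5.93, 5.25 and 6.54 to 2.19, 1.36 and 1.34, a log2 fold change of -1.84 ± 0.37 (SE; edgeR adjusted p = 0.0118, and 0.0875 without E14.5 replicate 3). The stages were clearly apart at this low level. The 10 regions nearest to Bmp2, a BMP ligand, ranged from -0.40 to 0.48, and the 3 nearest to Wnt11, a Wnt ligand, from -0.39 to 0.65. No region nearest to either gene passed.

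The lists of other cell types held 15 regions. None of the 9 stromal regions passed, with a median of 0.24. Of 4 endothelial regions, 1 fell, at chr1:4426276-4427883, 65.8 kb from the promoter of Sox17, a transcription factor of arterial endothelium. It held 27.6, 28.8 and 38.5 CPM at E14.5 and 13.4, 11.3 and 14.4 at P0 (log2 fold change -1.27 ± 0.21, SE; edgeR adjusted p = 0.00395), and it passed in all 14 other fits. The other 2 regions nearest to Sox17 stood at 0.37 and 0.83, the latter with an adjusted p of 0.0537 in edgeR, and the region nearest to Kdr, a receptor for vascular growth factor, stood at 1.01 with 0.065. Of 2 ureteric regions, 1 rose, 79.6 kb from the promoter of Calb1, a calcium-binding protein. It held 7.95, 12.0 and 11.2 CPM at E14.5 and 20.8, 21.2 and 18.2 at P0 (log2 fold change 0.94 ± 0.22, SE; edgeR adjusted p = 0.0242). The adjusted p at Calb1 was 0.102 when either E14.5 replicate 1 or E14.5 replicate 3 was left out, 0.134 for P0 replicate 1 and 0.0582 for P0 replicate 2. No region was nearest to an immune gene.

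**Figure D4:**
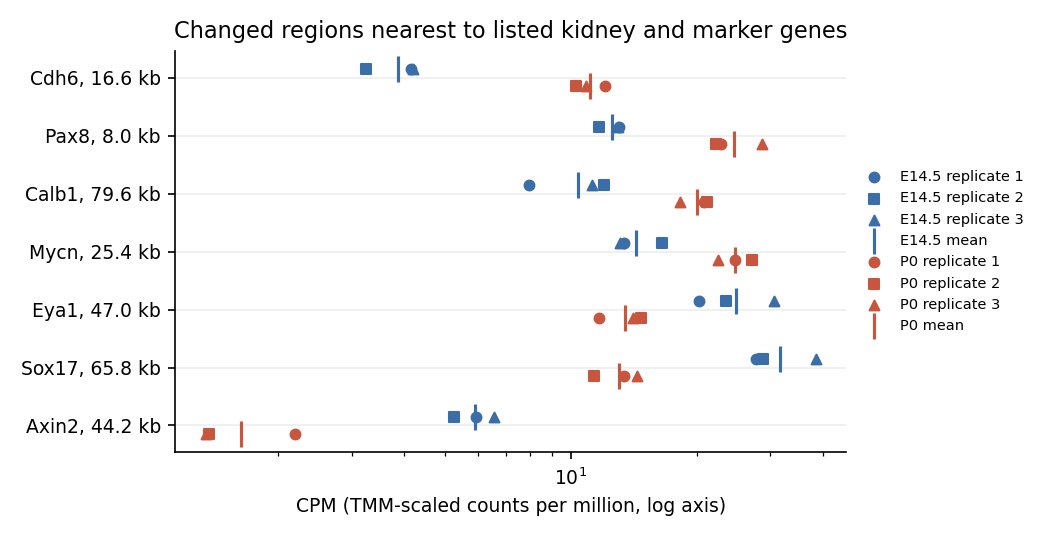
CPM on a log axis in every library for the 7 changed regions nearest to a listed gene, labelled by gene and distance; E14.5 is blue, P0 is red, symbols mark replicates and vertical bars the mean of 3 libraries. In Cdh6, Pax8, Calb1 and Mycn all P0 libraries lie above all E14.5 libraries, and in Eya1, Sox17 and Axin2 all lie below them.

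Of the 4085 promoter regions that were nearest to at least 1 region, 60 changed (1.47%; 24 higher and 36 lower), beside 118 of all 13555 autosomal promoter regions (0.871%). The 155 regions that rose had a nearest promoter that rose in 3 cases, fell in 1 and did not pass in 151, with a median promoter log2 fold change of 0.02. The 190 that fell had a nearest promoter that rose in 3 cases, fell in 4 and did not pass in 183, with a median of -0.08. For the 6948 regions that did not pass, the nearest promoter rose in 46 cases, fell in 53 and did not pass in 6849, with a median of -0.06. Across all 7293 pairs, log2 fold changes of region and promoter had a Pearson r of 0.112 and a Spearman rho of 0.137. These points share the same 6 libraries, and many share a promoter. Within the 5 distance classes Pearson r lay between 0.0566 and 0.142.

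Of the 11 changed regions whose nearest promoter also changed, 7 went the same way. The edgeR adjusted p of these promoters ran from 0.00739 at Col9a1 to 0.0484 at Gm11228. Values with a library left out are given below for the regions only, not for these promoters. The region at chr2:79205841-79207132, 47.5 kb from the promoter of Itga4, an integrin subunit, rose from 12.1, 17.3 and 8.17 CPM to 23.1, 26.0 and 24.0, without overlap. Its log2 fold change was 0.95 and that of the promoter 1.21. The promoter went from 6.19 ± 2.05 CPM to 14.3 ± 0.843 CPM (SD, n = 3 each). A pair 4.94 kb apart at ENSMUSG00000064570, between Nudt12 and Efna5, rose together, at 1.11 for the region and 1.08 for the promoter. Pairs at Gm11228 (-1.37 and -0.72), Gm14121 (-1.31 and -1.29), Gm15608 (-1.12 and -1.05) and Gm11333 (-1.02 and -0.83) fell together.

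Region and promoter went opposite ways at Col9a1, which encodes a chain of collagen IX. The region 6.23 kb from this promoter rose from 2.85, 2.63 and 2.80 CPM to 6.66, 7.72 and 6.16 (log2 fold change 1.30 ± 0.32, SE; edgeR adjusted p = 0.0283). The promoter fell from 15.3 ± 3.29 to 5.71 ± 1.09 CPM (SD, n = 3 each). On the log2 scale this was -1.41. Opposite pairs were also found at ENSMUSG00000096914 (-1.41 for the region and 1.00 for the promoter) and ENSMUSG00000098555 (-1.26 and 1.19). The promoter of the olfactory receptor gene Olfr458 (1.16) was nearest to a region that rose (0.87) and to one that fell (-1.27). Olfactory receptor and zinc finger genes have near-identical copies, and how reads shared between copies were counted is not given in the sources used here. Its part in these values was not tested. Of these 11 regions, each lost its call without at least 1 library. Without E14.5 replicate 3 the edgeR adjusted p ran from 0.0659 at the falling Olfr458 region to 0.21 at Itga4, and was 0.132 at Col9a1. Leaving out P0 replicate 1 gave 0.0588 at Gm15608 to 0.139 at Itga4 in 10 of them. With E14.5 replicate 1 or P0 replicate 2 left out it was 0.125 or 0.0829 at Itga4, 0.087 or 0.0728 at Col9a1, 0.0679 or 0.0667 at Gm11333 and 0.0566 or 0.0539 at the rising Olfr458 region. With P0 replicate 3 left out it was 0.0525 at Itga4 and 0.0545 at that Olfr458 region. The region at Col9a1 gave 0.0619 with replicate number as a block.

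**Figure D5:**
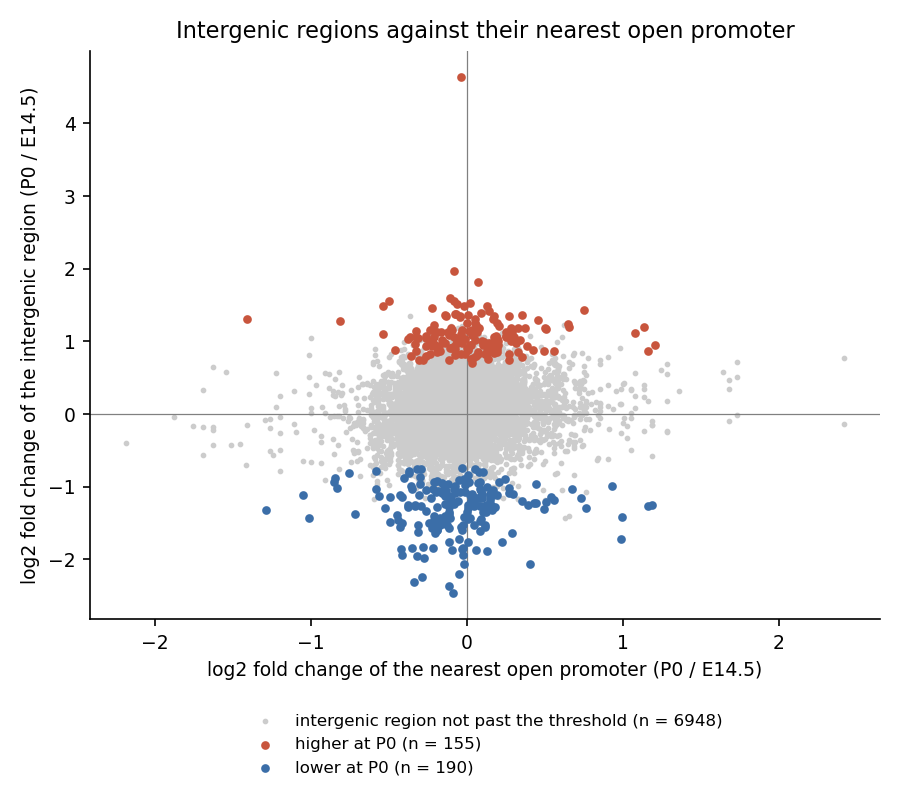
Log2 fold change (P0 over E14.5) of each intergenic region against that of its nearest open promoter, with regions higher at P0 in red (n = 155), lower in blue (n = 190) and others in grey (n = 6948). Changed regions lie mostly above promoters with values near 0; the red point at the far left is the region near Col9a1 (1.30, with the promoter at -1.41).

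Of the 4085 promoters, 322 were nearest to at least 1 changed region. Only 1753 were nearest to more than 1 region of any kind, and 20 of these were nearest to at least 2 changed ones, of which 6 had gains alone, 4 had losses alone and 10 had both. At Grin3a, a glutamate receptor subunit, all 3 regions rose, 7.06, 46.7 and 99.4 kb from the promoter. Their log2 fold changes were 1.05, 0.80 and 1.07, and that of the promoter was -0.26. The nearest held 8.90, 13.9 and 7.47 CPM at E14.5 and 27.8, 20.7 and 15.0 at P0, without overlap. Leaving out E14.5 replicate 3 gave edgeR adjusted p-values of 0.232, 0.187 and 0.117 at these Grin3a regions, and leaving out P0 replicate 1 gave 0.28, 0.165 and 0.0717. Leaving out E14.5 replicate 1 gave 0.146, 0.107 and 0.0524, leaving out P0 replicate 2 gave 0.0688, 0.0715 and 0.0705, and limma-voom gave 0.057 at the nearest of them.

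Both directions met at the other 2 promoters with 3 changed regions. Between Eya1 and Trpa1, around Gm9947 and Msc, a repressor of the basic helix-loop-helix family, 3 of 6 regions changed, with log2 fold changes of 0.83, 1.03 and -1.07. The falling region at chr1:14794129-14796128 held 15.4, 14.7 and 15.8 CPM and then 7.60, 7.42 and 6.79. Between Nr2f1, a nuclear receptor, and Arrdc3, nearest to ENSMUSG00000101416, 3 of 5 regions changed, with 1.04, -1.28 and -1.25. The rising one at chr13:79309223-79310462 held 16.3, 17.1 and 16.0 CPM and then 35.5, 36.6 and 29.5, and the falling ones lay 54.2 and 60.7 kb from the same promoter. Without E14.5 replicate 3 the edgeR adjusted p was 0.192, 0.127 and 0.0842 at Gm9947 and 0.0617, 0.158 and 0.0554 at ENSMUSG00000101416. Without P0 replicate 1 the Gm9947 regions gave 0.14, 0.125 and 0.0634, and the first 2 regions of ENSMUSG00000101416 gave 0.056 and 0.108. The first Gm9947 region also gave 0.11 without E14.5 replicate 1 or 0.0545 without P0 replicate 3.

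The annotated RefSeq starts whose sequences are shown above lay in 5 changed regions out of 237 that contain a start window (2.11%; 3 higher and 2 lower), beside 4.73 percent of all regions. The region around Gm35028, between Atg5 and Prdm1, rose from 20.4, 15.5 and 13.0 CPM to 35.8, 30.7 and 26.4 (log2 fold change 0.93 ± 0.22, SE). The region around Gm30252, between Boc, a Hedgehog co-receptor, and Nepro, rose from 10.8, 17.0 and 14.25 to 31.8, 21.3 and 31.7 CPM (1.01 ± 0.23, SE). Gm34752 lies in the rising Olfr458 region, with 16.3, 15.6 and 13.3 CPM and then 22.8, 29.7 and 29.9. The region at the start of Zfp33b, a zinc finger gene, fell from 49.7, 49.7 and 51.4 CPM to 27.8, 24.1 and 34.1 (-0.80 ± 0.19, SE). The region at AU041133, nearest to Gm15608, fell from 44.1, 28.6 and 49.3 to 20.8, 14.8 and 20.1 CPM. The stages did not overlap in any of these 5. Without E14.5 replicate 3 their edgeR adjusted p was 0.167 (nearest promoter Prdm1), 0.116 (Mir3081), 0.153 (Olfr458), 0.152 (BC005561) and 0.108 (Gm15608), and without P0 replicate 1 it was 0.169, 0.136, 0.0611, 0.175 and 0.0588 in the same order. Leaving out E14.5 replicate 1 gave 0.0931 at Mir3081 and 0.0847 at BC005561, and leaving out E14.5 replicate 2 gave 0.0515 at Prdm1.

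The deposited annotation also marked known enhancers and motif matches. Enhancers of the FANTOM catalogue, which are called from paired transcription at enhancers, overlapped 1013 of the regions (13.9%), beside 9.65% of all regions and 4.53% of distant intergenic ones. Of these 1013, 21 changed (2.07%; 14 higher and 7 lower, but 7 and 17 without P0 replicate 3), and of the 6280 others 324 changed (5.16%). The order of these 2 shares held in all 14 other fits. Enhancers of the VISTA catalogue, tested in transgenic embryos, overlapped 87 regions, of which edgeR called 0. At an unadjusted p under 0.05 there were 13 of the 87, beside 18.7 percent of all regions, the DESeq2 Wald test called 1 and limma-voom 0, and the fits with the replicate block, without P0 replicate 2 and without P0 replicate 3 called 1 each. The median log2 fold change of the VISTA regions was -0.11.

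A motif of the forkhead family, transcription factors of which Foxd1 marks kidney stroma, was listed in 1627 regions. Of these, 103 changed (6.33%), 29 upward and 74 downward, beside 4.73 percent of all regions. It was listed in 38.9% of the regions that fell, 18.7% of those that rose and 21.9% of those that did not pass. Leaving out E14.5 replicate 3 left 0 forkhead regions that rose and 22 that fell. Leaving out P0 replicate 1 left 0 and 29, and with E14.5 replicate 1 or 2 left out there were 9 and 61 or 65 and 84. Most other families lay near 4.73 percent. Motifs of Sox factors were listed in 1031 regions, of which 4.85% changed (16 higher, 34 lower), and of Sall factors in 973, of which 4.42% changed (23 and 20). Motifs of Smad proteins, which carry BMP and TGF-beta signals, were listed in 696 regions (4.60%; 21 and 11). The shares were 4.70% of 1127 for Maz (26 and 27), 4.76% of 462 for Meis (7 and 15), 5.35% of 374 for AP-1 (11 and 9) and 4.49% of 312 for Pax (8 and 6). They were 2.79% of 215 for Six2 (4 and 2) and 2.55% of 588 for E2F, regulators of the cell cycle (6 and 9). How the motifs were searched is not given in the sources used here.

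In the authors' deposited table, 244 of the 7293 regions carry the mark Opening (3.35%, beside 2.86 percent of all regions) and 164 the mark Closing (2.25%, beside 2.48 percent), and 102 have an adjusted p under 0.05. Of the 155 regions that rose here, 151 are marked Opening in the authors' deposited table, and of the 190 that fell, 153 are marked Closing. The authors' deposited table marks 0 of the 345 in the opposite direction. The rule behind the marks is not given in the sources used here. Among regions named here, the authors' adjusted p reached 0.0940 with a mark, while a region with 0.108 was Stable. The threshold thus differs from 0.05, and both sets of calls rest on the same counts, so the match is not an independent check.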

How the data were processed

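The 6 ATAC-seq libraries, 3 per stage, were grouped by their labels, and each count column was matched to its library by title, which left 0 columns unmatched. The authors deposited 1 table of whole-number counts per region, with mm10 as the genome build per the submitters' processing notes. The aligner, peak caller, counting rule, duplicate removal and any Tn5 shift are not given in the sources used here, and what they did to the values was not examined. This table also holds the authors' log2 fold change and adjusted p-value, made with a model that the file headers do not describe and used here only for a closing comparison. Of 45489 rows, 1966 repeated a region and were dropped.

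All 43523 regions were tested together with edgeR 4.0.16 (R 4.3.3; TMM scaling, filterByExpr, which removed 0 regions, quasi-likelihood F test, stage as the only term), with Benjamini-Hochberg adjustment over all regions and a threshold of 0.05. CPM use TMM-scaled library sizes, and a standard error is the log2 fold change divided by the square root of F. On simulated data with 200 of 43523 regions changed 2-fold, the fit called 64 of these (32%) and 8 unchanged regions. Values per library were compared by exact two-sided permutation. Each library is a biological replicate pooled within a litter, per the series' design text, which does not say that the litters of a stage differ. Where they do not, p-values measure only the spread between these samples.

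Regions named in the text were the 10 largest gains and 10 largest losses among changed regions whose stages did not overlap, changed regions nearest to a listed gene, the 5 with the most counts, the 3 promoters with the most changed regions and the regions next to the distance limit. Changed regions whose promoter also changed or that contain a RefSeq start, and the regions given for Six2, Hey1, Jag1, Bmp2, Wnt11, Igf2bp3 and Kdr, were chosen after their values were seen. The members and lists were chosen with earlier results of these data known. A listed gene that enters the counts only is not reported here. Promoter identifiers were named through the table's own 28296 pairs of identifier and name, and 10866 of 12505 named promoter regions matched RefSeq by symbol, 10860 of them on the gene's chromosome. Of the 7293 regions, 6026 had a named nearest promoter, 84 overlapped another one, and 481 overlapped a RefSeq protein-coding gene although the table lists no gene there. A library left 1 to 7 of the regions under 10 counts. Computations used Python 3.11.15 with scipy 1.17.1, numpy 2.4.6 and pandas 2.3.3, and matplotlib 3.10.9 for figures.

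Alternatives were DESeq2 size factors and the Wald test of DESeq2 1.42.0, total-count scaling, limma-voom (limma 3.58.1), no filter, a mean count of at least 50, autosomes alone, a replicate block, thresholds of 0.01 and 0.1, distances of 50 and 200 kb and from region edges, and leaving out each library.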

Additional observations from a re-analysis of the deposited data

How the results depend on the processing

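The 345 changed regions (155 higher, 190 lower) numbered between 322 and 376 with DESeq2 size factors, total-count scaling, limma-voom, no filter, a mean count of at least 50, autosomes alone or a replicate block. The DESeq2 Wald test called 484, with 233 higher. A threshold of 0.01 gave 91 (23 higher, 68 lower) and 0.1 gave 607 (313 and 294). A distance limit of 50 kb gave 173 (92 and 81) and 200 kb gave 588 (243 and 345). Leaving out 1 library in turn gave 50 to 521 changed regions, 9 to 309 higher and 41 to 228 lower. The share of lower regions was 55.1%, 48.3% with total-count scaling, which shifted the whole table's median from 0.01 to 0.07 on the log2 scale, 40.7% without E14.5 replicate 2, 83.3% without P0 replicate 1, 77.7% without E14.5 replicate 1 and 82% without E14.5 replicate 3. With replicate number as a block, 322 regions passed (129 and 193), 286 of them among the 345; same-numbered libraries deviated from their stage means with correlations of 0.07, -0.14 and 0.08, so that the numbers do not pair the libraries. The log2 ratio to distant intergenic counts differed by 0.0016 between stages and reversed to -0.0453 without E14.5 replicate 2 and to -0.0289 without P0 replicate 3, within a leave-one-out range of -0.0453 to 0.0331. The difference in share of counts ranged from 0.439 to 1.01 points with 1 library left out, and was 0.424 at 50 kb and 1.13 at 200 kb. Of 49 named changed regions, 39 lost the call in at least 1 fit and 0 reversed. The other 10 passed in every fit run for them, 9 of them in all 14, since Gatm and 3 of the 39 (4 in all) did not enter the fit with a mean count of at least 50. The losses numbered 36 without E14.5 replicate 3, 31 without P0 replicate 1, 12 without E14.5 replicate 1, 9 without P0 replicate 2, 3 without P0 replicate 3, 2 with limma-voom and 1 each with the block and without E14.5 replicate 2. The cause was not tested. In the simulation with 200 changed regions, 32% of the 2-fold changes were called. That setting held far fewer changes than the 2059 regions called over the whole table. The share of 2-fold changes missed in these data was not measured.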

Other observations

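The 5 regions with the most counts did not pass the test. The region at chr11:3100016-3104750 held 648, 376 and 654 CPM at E14.5 and 485, 817 and 355 at P0. The region at chr9:124256326-124258005 held 318, 200 and 343 CPM and then 259, 431 and 167. E14.5 replicate 2 was the lowest E14.5 library and P0 replicate 3 the lowest P0 library in all 5, which include regions nearest to Tpcn2, Axin2 and ENSMUSG00000096130. Per length they stood at 117 to 473 CPM per kb, beside a median of 8.17 over all intergenic regions near an open promoter.

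The chromosomes given here were picked after their values were seen, and the share over all chromosomes was 4.73%. On chromosome 15, 17 of 332 regions rose and 4 fell. On chromosome 3, 44 of 584 changed (7.53%), on chromosome 1, 43 of 565 (7.61%), and on chromosome 19, 1 of 166 (0.602%). No test of this spread was made. The autophagy gene Atg7 had the promoter nearest to the most regions, 30, and 0 of these were called by edgeR.

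The table also holds columns that tie regions to target genes of a catalogue of enhancers. They name a gene for 3117 of these regions, of which 2706 could be found in RefSeq, and 19 of those (0.702%) lay on the chromosome of the region. Over all regions the share was 114 of 16338 (0.698%). These columns were therefore not used.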
